A study of Mus musculus with 6 samples.

Results

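The Zbtb genes encode zinc finger and BTB domain proteins, a family of transcription factors, and were examined here in mouse macrophages that had been exposed to medium from lung macrophages. The genes were chosen by symbol alone, as Zbtb followed by a number and at most 1 letter, which gave 40 of the 21959 genes in the deposited table. The table describes all 40 as zinc finger and BTB domain containing, and they lie on 15 chromosomes. The cells were primary bone marrow-derived macrophages (BMDMs), macrophages differentiated in culture from the bone marrow of wild-type mice. In the first group of 3 libraries (P1, P2 and P3) the BMDMs had been kept for 24 h in fresh medium mixed 1:1 with medium from alveolar macrophages that carried HTR2C, the serotonin receptor 2C. In the second group of 3 (N1, N2 and N3) the added medium came from HTR2C-negative alveolar macrophages. In both groups the donors of the alveolar macrophages were mice 8 to 12 weeks of age, and these cells had conditioned the medium for 48 h. BMDMs in unconditioned medium were not analysed here, so a difference shows one conditioned medium against the other. Whether the libraries of a group came from separate animals, cultures or batches of medium is not said in the labels. The p-values below therefore rest on a spread between libraries that may be only technical.

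BTB zinc finger proteins bind DNA through zinc fingers near the carboxy end. The BTB domain at the amino end pairs 1 protein with another and recruits partners, among them the corepressors NCoR1 and BCoR, and in some members the ubiquitin ligase scaffold cullin 3. Many members repress transcription, and several set the fate of lymphocytes, natural killer T cells, germinal centre B cells and dendritic cells. Of these traits, the table's own annotation was counted for a place in the nucleus and for repression. It places 32 of the 40 in the nucleus (80.0%, against 28.5% of all genes in the table), and it gives 25 of the 40 a repressor activity on RNA polymerase II genes (62.5%, against 1.55%).

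The libraries held 15559219, 15728400 and 15545190 counts with HTR2C-positive medium and 12843971, 13745685 and 16031723 counts with HTR2C-negative medium. N2 and P1 were the most alike pair of all libraries although they come from different groups (Pearson r of log2 CPM, the count scaled to the TMM-adjusted library size, of 0.980 in a range of 0.957 to 0.980). Fold changes without them are given below for the members with an unadjusted p under 0.05 and for several others. These libraries were picked from the same data for their likeness across the groups. Leaving them out thus favours a difference between the groups, and p-values of such fits do not count that choice. All 7 macrophage markers examined were detected in every library, with summed levels of 19339 to 22607 CPM with HTR2C-positive medium and 19983 to 22234 with HTR2C-negative medium. The sums were mostly Lyz2 (means of 16981 and 17684 CPM in that order) and do not show the other markers. Csf1r was higher without overlap between the groups (means of 164 and 106 CPM, log2 fold change 0.63, edgeR unadjusted p = 0.00512, adjusted p = 0.141). The log2 fold changes of the others ran from -0.11 (Cd68) to 0.14 (Fcgr1). Adgre1 was highest in P1 and N2 (1846 and 1694 CPM), against 897 to 1095 CPM elsewhere. Of 8 neutrophil markers, 7 were detected in every library and Ly6g was at 0 in all 6, with summed levels of 984 to 1230 CPM with HTR2C-positive medium and 813 to 1017 CPM with HTR2C-negative medium, mostly from S100a8 (means of 798 and 655 CPM in that order). For dendritic cells, 2 of 7 markers were detected in every library. Summed B cell markers were at 1.52 to 1.71 CPM with HTR2C-positive medium and 0.605 to 1.24 CPM with HTR2C-negative medium. Summed mast cell and basophil markers were at 7.93 to 11.1 CPM with HTR2C-positive medium and 11.4 to 14.9 CPM with HTR2C-negative medium. The part of these marker differences in the results was not tested. In RNA from whole cultures, fewer cells that express a gene cannot be told apart from less RNA per cell.

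The Zbtb family as a whole was a minor and uneven component of the transcriptome. Its genes summed to 333, 387 and 421 CPM with HTR2C-positive medium, against 487, 415 and 466 CPM with HTR2C-negative medium. The HTR2C-positive values were the lower ones except that P3 exceeded N2, so the groups overlapped. Between 35 and 37 members had at least 1 count in a library of the HTR2C-positive group, and 36 had one in each library of the HTR2C-negative group. The 5 most abundant members took 59.9%, 61.2% and 63.0% of the family's counts with HTR2C-positive medium, against 65.2%, 64.5% and 66.4% with HTR2C-negative medium. Of the 40, 34 passed the filter on low counts and were tested. Zbtb9, Zbtb8b and Zbtb16 had no count in any library, a level that allows up to 3 counts, or 0.171 to 0.265 CPM depending on the library. That limit may not hold for Zbtb9, which shares 35160 bases with Gm50253 on the same strand, a gene also at 0 CPM. How reads in shared spans were counted is not given in the sources used here. Zbtb16 encodes PLZF, the factor of natural killer T cells. Zbtb12 had 4, 5 and 3 counts with HTR2C-positive medium, against 1, 2 and 2 counts with HTR2C-negative medium. Zbtb10 had 5, 3 and 0 counts with HTR2C-positive medium, against 4, 0 and 3 counts with HTR2C-negative medium. Zbtb7c had 3 counts in P2, 1 count in N2 and none elsewhere.

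Promoter sequences of the 5 members whose unadjusted p was under 0.05 are printed here because these genes carry most of what follows. The windows are the 250 bases before an annotated start, from RefSeq on build GRCm38.p6, whereas the deposited gene coordinates are on GRCm39. Capitals mark matches, on either strand, to any of 8 short motifs: the GC box GGGCGG, the ETS core CCGGAA, the NRF1 core GCATGCGC, the CCAAT box, the TATA box with letters TATAAA, the E-box with letters CACGTG, the interferon response element (ISRE) core, and the site TCCTGCNA of the Zbtb33 protein Kaiso. Zbtb38 has 3 annotated starts, of which the first (chr9:96731676-96731925, minus strand) and the second (chr9:96719851-96720100, minus strand) are shown with Zbtb1 (chr12:76370270-76370519, plus strand), Zbtb41 (chr1:139422133-139422382, plus strand), Zbtb6 (chr2:37430920-37431169, minus strand) and Zbtb7a (chr10:81136021-81136270, plus strand).
Zbtb38 first start: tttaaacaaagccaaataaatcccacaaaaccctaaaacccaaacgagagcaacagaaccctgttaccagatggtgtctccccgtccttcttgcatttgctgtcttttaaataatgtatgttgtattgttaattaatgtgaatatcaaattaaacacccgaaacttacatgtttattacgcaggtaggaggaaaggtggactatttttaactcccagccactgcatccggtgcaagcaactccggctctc
Zbtb38 second start: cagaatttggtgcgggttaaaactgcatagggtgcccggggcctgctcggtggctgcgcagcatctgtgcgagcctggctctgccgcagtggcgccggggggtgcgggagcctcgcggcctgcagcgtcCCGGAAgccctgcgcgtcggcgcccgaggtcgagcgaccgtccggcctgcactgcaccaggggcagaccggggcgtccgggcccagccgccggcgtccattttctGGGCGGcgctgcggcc
Zbtb1: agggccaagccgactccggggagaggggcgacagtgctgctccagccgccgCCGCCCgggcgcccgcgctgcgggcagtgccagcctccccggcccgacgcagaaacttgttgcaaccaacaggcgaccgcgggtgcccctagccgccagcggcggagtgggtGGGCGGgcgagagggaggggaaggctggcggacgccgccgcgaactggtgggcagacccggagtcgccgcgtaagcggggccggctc
Zbtb41: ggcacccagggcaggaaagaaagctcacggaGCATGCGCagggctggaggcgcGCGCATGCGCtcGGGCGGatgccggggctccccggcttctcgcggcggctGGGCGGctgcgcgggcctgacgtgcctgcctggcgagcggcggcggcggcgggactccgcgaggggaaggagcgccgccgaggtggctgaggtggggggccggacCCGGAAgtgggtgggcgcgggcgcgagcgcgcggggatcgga
Zbtb6: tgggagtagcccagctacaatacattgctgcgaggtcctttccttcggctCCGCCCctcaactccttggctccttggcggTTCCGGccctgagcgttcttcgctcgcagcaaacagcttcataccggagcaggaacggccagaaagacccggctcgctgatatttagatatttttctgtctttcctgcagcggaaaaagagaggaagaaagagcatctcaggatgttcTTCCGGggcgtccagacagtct
Zbtb7a: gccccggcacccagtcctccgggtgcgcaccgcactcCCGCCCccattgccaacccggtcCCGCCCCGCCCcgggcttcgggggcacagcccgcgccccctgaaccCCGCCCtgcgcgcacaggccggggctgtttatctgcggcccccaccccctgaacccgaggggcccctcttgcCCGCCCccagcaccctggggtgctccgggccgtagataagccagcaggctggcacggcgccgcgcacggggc

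The first Zbtb38 window holds 40.4% G and C bases with 6 CpG dinucleotides and none of the 8 motifs. The second holds 74.0% with 31 CpG, a GC box and an ETS core, and the third, not printed, holds 69.6% with 23 CpG and a GC box. The windows of Zbtb1 (76.4%, 33 CpG), Zbtb41 (78.4%, 38 CpG) and Zbtb7a (78.0%, 26 CpG) are CpG-rich, with 2, 2 and 5 GC boxes in that order. Zbtb41 alone of the 5 genes carries NRF1 cores, with 3 matches of which 2 overlap on opposite strands. Zbtb6 has 54.8% G and C, 15 CpG, 1 GC box and 2 ETS cores. CpG-rich windows with GC boxes thus occur both among the 4 genes with lower values and at Zbtb7a, the gene with higher values. RefSeq windows were found for 35 of the 40 members, 48 windows in all, some of which overlap one another, with a median of 64.6% G and C and 20 CpG, against 52.4% and 6 over 32841 windows of all genes. A GC box was in 29 of the 48 windows (60.4%, against 32.7% of all windows). The ETS core was in 14 (29.2%, against 12.0%) and the NRF1 core in 5 (10.4%, against 2.26%). CCAAT was in 14 (29.2%, against 33.9%), TATAAA in 5 (10.4%, against 12.4%), the E-box in 5 (10.4%, against 6.02%), the interferon response core in 2 (4.17%, against 2.98%) and the Kaiso site in 4 (8.33%, against 4.03%). The motifs were chosen after the windows had been read, and a match is a description of letters, not a shown binding site.

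At an unadjusted p under 0.05, Zbtb38, Zbtb1, Zbtb41 and Zbtb6 were lower and Zbtb7a was higher in BMDMs given HTR2C-positive medium, and none of the 34 tested members passed edgeR's quasi-likelihood test after Benjamini-Hochberg adjustment over all 10177 genes. No gene of the transcriptome passed it (0 of 10177, 0%, lowest adjusted p 0.0616), while 1690 genes had an unadjusted p under 0.05. The 4 lower members are 11.8% of those tested, against 8.71% of all genes, and the 1 higher member is 2.94%, against 7.9% of all genes. The family's shares thus stood near the background for lower genes and below it for higher genes, each on a handful of genes. Of the 34 log2 fold changes (HTR2C-positive minus HTR2C-negative medium), 18 were negative and 16 positive (52.9% negative, against 47.9% of all genes), with a median of -0.03, against 0.02 for all genes. The median was 0.11 when libraries were scaled by total counts alone, where that of all genes was 0.16. DESeq2 called 3 members lower and 0 higher at an adjusted p under 0.05, namely Zbtb38, Zbtb1 and Zbtb41, where it called 2.56% of all genes lower and 1.31% higher. It gave no adjusted p to 17 of the 34 members, under its own filter on mean count. Limma-voom called 0 genes. With edgeR, dropping the filter on low counts called 3 members (2.84% of all genes). Leaving out N2 called Zbtb38, Zbtb1 and Zbtb41 (2.29% of all genes), leaving out P1 called Zbtb38 (1.96%), and leaving out both called these 3 and Zbtb7a (11.4%). Because N2 and P1 were picked for their likeness across the groups, these calls add no independent evidence.

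**Figure D1:**
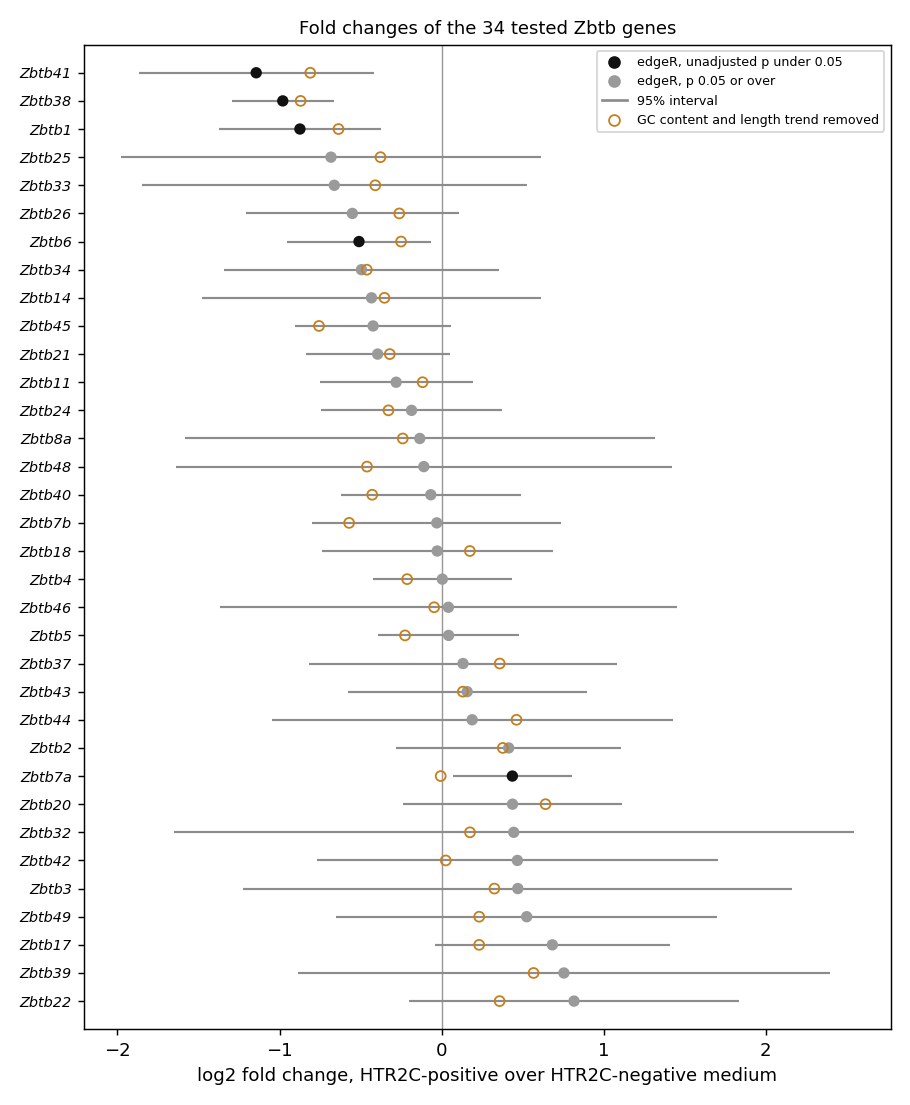
Log2 fold change of each tested Zbtb gene, HTR2C-positive minus HTR2C-negative medium, with its 95% interval from edgeR's quasi-likelihood fit, ordered by the fold change, black where the unadjusted p was under 0.05 and grey elsewhere, with open circles for values net of a GC and length trend. Zbtb38 at -0.98 has a narrow interval below 0, while most intervals of the 34 genes cross 0.

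A trend with base composition ran through these libraries and touched the family. Across all tested genes, the 10% with the least G and C in the transcript (median 39.4%) had a median log2 fold change of -0.32, and the 10% with the most (median 58.7%) had 0.50. Across genes, which are not independent replicates and share the 6 libraries, fold change and GC content had a Pearson r of 0.52 over all tested genes and 0.63 over the 34 members. The 4 members with lower values have transcripts of 36.9% to 45.5% G and C, and Zbtb7a has 57.4%. After a trend on GC content and transcript length was taken out of each library (values net of the trend), the family had a median of -0.22, against 0.01 for all genes, and 21 of 34 were negative (61.8%, against 48.5%). By unadjusted p under 0.05, 4 members were then lower and 0 higher, against 5.46% and 4.33% of all genes, with 0% of all genes at an adjusted p under 0.05. These 4 were Zbtb38, Zbtb1, Zbtb41 and Zbtb45, while Zbtb6 and Zbtb7a were no longer among them. The accounts below give the value net of the trend for some genes only, so its absence does not mean that a value was unmoved. Net of the trend, Zbtb7b moved from -0.03 to -0.57, Zbtb40 from -0.07 to -0.43 and Zbtb20 from 0.44 to 0.64. Zbtb22 moved from 0.82 to 0.36 and Zbtb26 from -0.55 to -0.26.

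**Figure D2:**
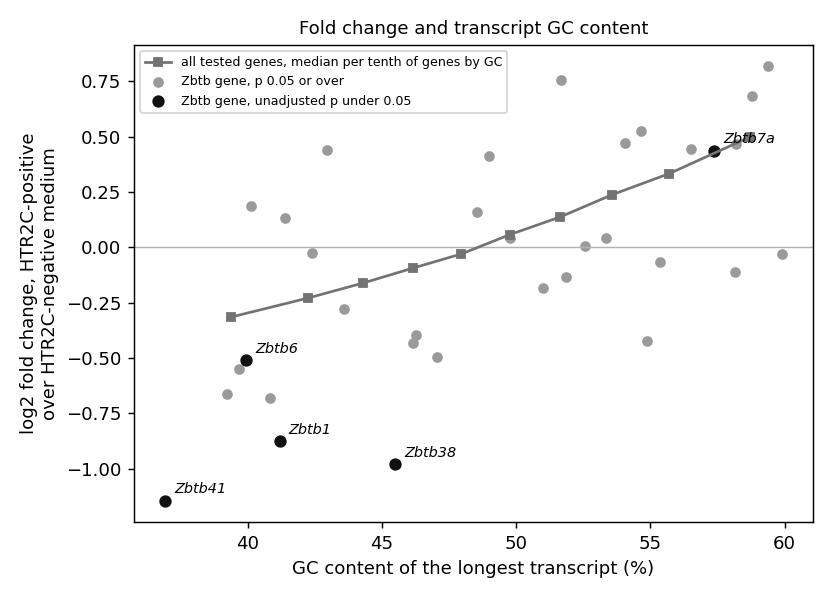
Log2 fold change of the 34 tested Zbtb genes (HTR2C-positive minus HTR2C-negative medium) against the percentage of G and C in the longest annotated transcript, with the median of all tested genes in 10 equal bins of GC content. Zbtb38 lies below the all-gene line, while Zbtb7a, at 57.4% G and C, lies on it.

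The 3 methyl-CpG binding members encode proteins that bind methylated DNA and repress genes there. Of them, Zbtb38 was lower by edgeR unadjusted p under 0.05 (1 gene, 33.3%, against 8.71% of all genes). Zbtb33 and Zbtb4 did not pass that threshold. Zbtb38 (ENSMUSG00000040433, GRCm39 chromosome 9, 96564823 to 96634884, minus strand) was at 38.0, 35.1 and 38.0 CPM with HTR2C-positive medium, against 78.1, 71.6 and 69.6 CPM with HTR2C-negative medium. Every HTR2C-positive library lay far below every HTR2C-negative one, and the spread within each group was small. The levels came to 37.0 ± 1.64 CPM with HTR2C-positive medium, 50.7% of the 73.1 ± 4.43 CPM with HTR2C-negative medium (SD, n = 3 each). The log2 fold change was -0.98 (SE 0.15, 95% interval -1.29 to -0.67, edgeR unadjusted p = 1.41e-05, adjusted p = 0.0616). The adjusted p was 1.43e-05 with DESeq2, 0.0784 with limma-voom, and 0.000106 with edgeR and no filter on low counts. With edgeR it was 0.149 on total counts alone and 0.358 with a replicate block. With any 1 library left out, the edgeR adjusted p ran from 0.0102 (without P1) to 0.550 (without N1), and was under 0.05 only without P1 or without N2. Leaving out any 1 library gave log2 fold changes of -1.01 to -0.93, leaving out both N2 and P1 gave -0.998, and removing the GC and length trend gave -0.87 (adjusted p = 0.225, unadjusted p = 2.96e-05). Zbtb33, on chromosome X, encodes Kaiso, which binds methylated CpG pairs as well as its own site. It was at 1.88, 0.463 and 3.26 CPM with HTR2C-positive medium, against 2.03, 3.16 and 3.70 CPM with HTR2C-negative medium. These values overlapped and the interval of the log2 fold change was wide (-0.66, -1.85 to 0.53). That interval holds the -0.98 of Zbtb38, so Zbtb33 cannot be set apart from it. Zbtb4, which like Zbtb38 can bind a lone methylated CpG, was at 15.0, 14.0 and 13.1 CPM with HTR2C-positive medium, against 12.7, 16.3 and 13.0 CPM with HTR2C-negative medium. Its values interleaved, and its log2 fold change of 0.00 (SE 0.20, -0.42 to 0.43) leaves room for a difference smaller than that of Zbtb38.

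**Figure D3:**
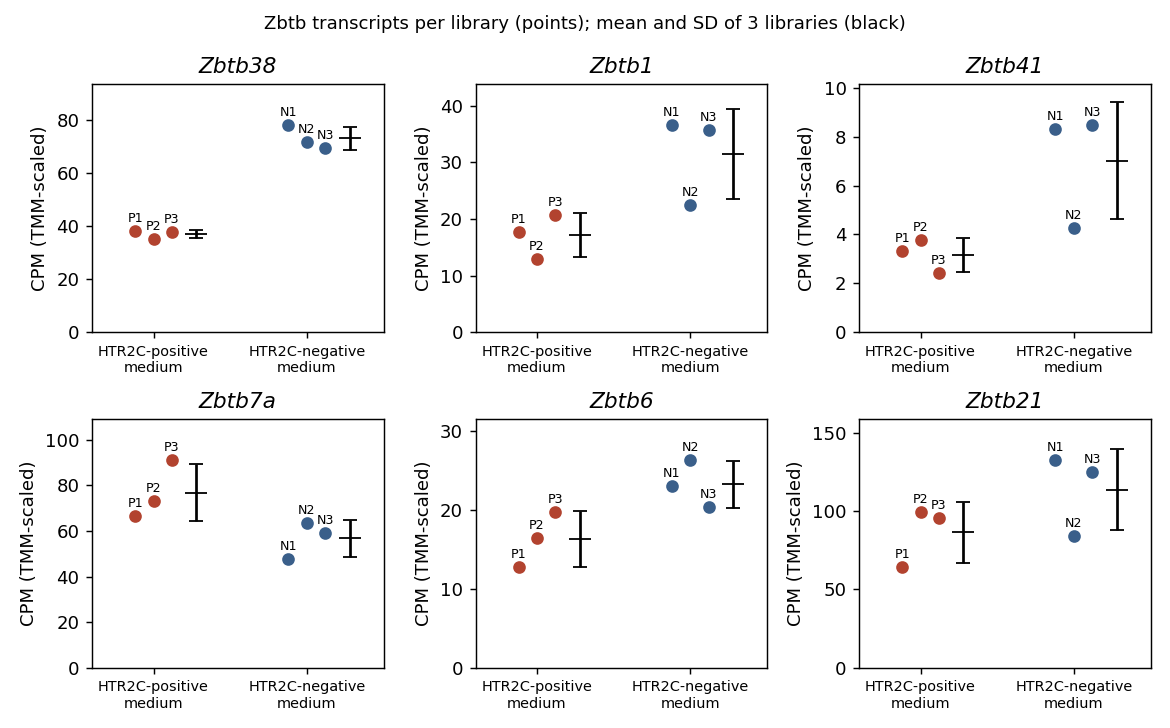
Level of Zbtb38, Zbtb1, Zbtb41, Zbtb7a, Zbtb6 and Zbtb21 in each library (TMM-scaled CPM), 1 panel per gene, with HTR2C-positive medium left of HTR2C-negative medium, coloured points for libraries and black bars for the group mean and SD (n = 3). Zbtb38 sits at 35.1 to 38.0 CPM with HTR2C-positive medium and at 69.6 to 78.1 CPM with HTR2C-negative medium.

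Of the 10 members tied to blood and immune lineages, 9 were tested (median log2 fold change 0.04). By edgeR unadjusted p under 0.05, 1 was lower (11.1%, against 8.71% of all genes) and 1 was higher (11.1%, against 7.9%). Both shares were near the background. Zbtb1, needed for T cell development and survival of lymphoid progenitors under replication stress, was the lower one. The gene (ENSMUSG00000033454, chromosome 12, 76417040 to 76443724, plus strand) was at 17.8, 13.0 and 20.8 CPM with HTR2C-positive medium, against 36.6, 22.4 and 35.7 CPM with HTR2C-negative medium. The groups did not overlap, although N2 came close to P3. Its means were 17.2 ± 3.95 CPM with HTR2C-positive medium and 31.6 ± 7.94 CPM with HTR2C-negative medium (SD, n = 3 each). The log2 fold change was -0.87 (SE 0.23, -1.38 to -0.37, edgeR unadjusted p = 0.00237, adjusted p = 0.113; DESeq2 adjusted p = 0.0163). It was -1.06 without N2 and -1.08 without N2 and P1. Net of the GC and length trend it was -0.64 (unadjusted p = 0.0114, adjusted p = 0.378).

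Zbtb7a was the higher one. It encodes LRF, also called Pokemon, which acts in erythroid and B cell development and represses glycolysis genes. The gene (ENSMUSG00000035011, chromosome 10, 80971054 to 80988829, plus strand) was at 66.5, 73.1 and 91.0 CPM with HTR2C-positive medium, against 47.7, 63.4 and 59.2 CPM with HTR2C-negative medium. All 3 HTR2C-positive values lay above the HTR2C-negative ones, with P1 and N2 the nearest pair. The log2 fold change was 0.44 (SE 0.17, 0.07 to 0.81, edgeR unadjusted p = 0.0240, adjusted p = 0.230), and net of the GC and length trend it was -0.01 (unadjusted p = 0.972). It was 0.33 without N1 (unadjusted p = 0.113) and 0.31 without P3 (unadjusted p = 0.119). Without N2 and P1 it was 0.63 with an edgeR adjusted p of 0.00297, one of 4 members called in that fit. That p does not count the choice of these libraries, which were picked for their likeness across the groups.

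The other immune members did not pass the unadjusted threshold. Zbtb17 encodes Miz-1, a partner of Myc that activates or represses cell cycle genes. It was at 4.34, 3.97 and 3.57 CPM with HTR2C-positive medium, against 2.12, 3.09 and 2.15 CPM with HTR2C-negative medium. Its groups did not overlap, but the log2 fold change of 0.68 (SE 0.34) had an interval of -0.04 to 1.41, and it was 0.23 net of the GC and length trend. Zbtb20, a repressor of the NF-kappaB inhibitor gene Nfkbia in macrophages, was at 6.05, 5.96 and 5.08 CPM with HTR2C-positive medium, against 3.01, 5.91 and 3.63 CPM with HTR2C-negative medium. N2 alone of its group reached the HTR2C-positive range, and the log2 fold change was 0.44 (SE 0.31, -0.24 to 1.11), or 0.78 without N2 (unadjusted p = 0.0389). Zbtb7b encodes ThPOK, the factor of the CD4 T cell lineage. It was at 3.94, 5.36 and 5.26 CPM with HTR2C-positive medium, against 2.74, 4.54 and 7.46 CPM with HTR2C-negative medium, where the HTR2C-negative values enclosed the others (log2 fold change -0.03, -0.80 to 0.74). Zbtb24, whose human counterpart is mutated in an immunodeficiency with centromere instability, was at 7.53, 8.47 and 5.14 CPM with HTR2C-positive medium, against 8.49, 7.43 and 8.13 CPM with HTR2C-negative medium. P3 was its low value, and the log2 fold change was -0.19 (-0.74 to 0.37).

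The remaining tested immune members were at low levels. Only Zbtb32 fell below the limit of 3 counts, with 1 count in P2 and 1 count in N1. Zbtb46 marks conventional dendritic cells among myeloid cells. It was at 1.03, 0.662 and 0.967 CPM with HTR2C-positive medium, against 0.530, 0.550 and 1.48 CPM with HTR2C-negative medium, overlapping and with a log2 interval of -1.37 to 1.45. Zbtb25, at 0.970, 1.13 and 0.665 CPM with HTR2C-positive medium, against 1.50, 2.27 and 0.672 CPM with HTR2C-negative medium, had a log2 fold change of -0.68 (-1.98 to 0.61). Zbtb32 encodes PLZP, a repressor of activated lymphocytes. It was at 0.970, 0.0662 and 0.604 CPM with HTR2C-positive medium, against 0.0884, 0.825 and 0.269 CPM with HTR2C-negative medium, with no order between the groups (0.45, -1.65 to 2.54).

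The members tied to cell cycle, genome and telomere upkeep did not differ at the unadjusted threshold (5 of 6 tested, median log2 fold change -0.07). Of them 0 were lower and 0 higher, against 8.71% and 7.9% of all genes. Zbtb2, whose human protein acts in the p53 pathway, was at 3.20, 5.56 and 4.65 CPM with HTR2C-positive medium, against 3.45, 3.58 and 3.02 CPM with HTR2C-negative medium (0.41, -0.28 to 1.11). Zbtb5, whose human protein represses the cell cycle inhibitor gene CDKN1A, was at 13.9, 18.1 and 15.6 CPM with HTR2C-positive medium, against 17.9, 14.9 and 13.3 CPM with HTR2C-negative medium (0.04, -0.39 to 0.48). Zbtb11, needed for mitochondrial function, was at 14.7, 13.2 and 21.4 CPM with HTR2C-positive medium, against 22.5, 20.1 and 17.2 CPM with HTR2C-negative medium (-0.28, -0.75 to 0.19). All 3 overlapped between the groups. The span of Zbtb11 overlaps that of Pcnp on the opposite strand, which averaged 342 CPM with HTR2C-positive medium and 641 CPM with HTR2C-negative medium, and the use of strand in counting is not given in the sources used here. Zbtb40, whose human counterpart is tied to bone mass, was at 7.53, 12.8 and 14.9 CPM with HTR2C-positive medium, against 11.6, 11.4 and 13.8 CPM with HTR2C-negative medium (-0.07, -0.62 to 0.49). The human protein of Zbtb48, TZAP, binds telomeres. Zbtb48 was at 0.514, 0.463 and 1.27 CPM with HTR2C-positive medium, against 0.354, 1.17 and 0.874 CPM with HTR2C-negative medium (-0.11, -1.64 to 1.42), so its interval allows changes in either direction larger than that of Zbtb38.

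Of the 21 members in none of these lists, 17 were tested (median log2 fold change -0.03). By edgeR unadjusted p under 0.05, 2 were lower (11.8%, against 8.71% of all genes) and 0 were higher (against 7.9%). Zbtb41 (ENSMUSG00000033964, chromosome 1, 139350026 to 139380743, plus strand) was at 3.31, 3.77 and 2.42 CPM with HTR2C-positive medium, against 8.31, 4.26 and 8.47 CPM with HTR2C-negative medium. N1 and N3 were high, and N2 lay just above P2. The log2 fold change was -1.14 (SE 0.34, -1.87 to -0.42, edgeR unadjusted p = 0.0047, adjusted p = 0.139; DESeq2 adjusted p = 0.0402), and it was -0.81 net of that trend (unadjusted p = 0.0272). It was -1.40 without N2 and -1.43 without N2 and P1. Its transcript has the least G and C of the 5, at 36.9%. Zbtb6 (ENSMUSG00000066798, chromosome 2, 37315512 to 37333183, minus strand) was at 12.7, 16.5 and 19.8 CPM with HTR2C-positive medium, against 23.1, 26.3 and 20.4 CPM with HTR2C-negative medium. P3 and N3 nearly met, and the log2 fold change was -0.51 (SE 0.21, -0.95 to -0.06, edgeR unadjusted p = 0.0279, adjusted p = 0.242). Leaving out P1 gave -0.34 (edgeR unadjusted p = 0.115), leaving out N2 gave -0.40 (0.111), leaving out both gave -0.24 (0.268), and scaling by total counts gave -0.39 (0.119). Left out singly, N1 and P2 also brought the unadjusted p above 0.05 (0.0578 and 0.0525). It was -0.25 net of the trend (unadjusted p = 0.240), so its place among the lower members depends on these choices. The span of Zbtb6 shares 10968 bases with that of Zbtb26 on the same strand, so how reads were split between them is uncertain.

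Zbtb21, a member in no role list, had the highest mean CPM in both groups. It was at 64.2, 99.3 and 95.7 CPM with HTR2C-positive medium, against 132, 84.0 and 125 CPM with HTR2C-negative medium. N2 lay among the HTR2C-positive values, and the log2 fold change was -0.39 (SE 0.21, -0.84 to 0.05, edgeR unadjusted p = 0.0775). It was -0.20 without P1 (edgeR unadjusted p = 0.280) and -0.56 without N2 (0.0131). Zbtb45 was at 11.4, 14.8 and 13.8 CPM with HTR2C-positive medium, against 22.0, 13.3 and 18.4 CPM with HTR2C-negative medium, again with N2 among the HTR2C-positive values. Its log2 fold change was -0.42 (edgeR unadjusted p = 0.0800), and net of the trend it was -0.76 (unadjusted p = 0.0139, adjusted p = 0.387). Zbtb22 was at 2.34, 2.12 and 2.48 CPM with HTR2C-positive medium, against 1.50, 0.688 and 1.75 CPM with HTR2C-negative medium. Its log2 fold change was 0.82 (unadjusted p = 0.106), or 0.51 without N2. The span of Zbtb22 overlaps that of Tapbp on the same strand and that of Zbtb45 overlaps Trim28 on the opposite strand, so their counts are uncertain. Zbtb21 shares 19242 bases with C2cd2 on the same strand, so its count is uncertain too. Zbtb22 was, with Zbtb7a and Zbtb17, one of 3 members (8.82%, against 10.9% of all genes) whose HTR2C-positive values all lay above the others, and 4 members (11.8%, against 11.5%) had all of them below. Across the 29 members with an unadjusted p of 0.05 or more, log2 fold changes ran from -0.68 to 0.82. The 95% interval of the log2 fold change was narrower than 1 for 8 of the 34 and wider than 2 for 13. A mean under 3 CPM was found for 15 members. With 3 libraries per group, changes within these intervals could go unseen. Whether depth or the spread between libraries widened them was not tested.

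Levels between genes were compared per transcript length, as the deposited FPKM. Zbtb21 stood first, with levels of 14.2 ± 2.45 FPKM with HTR2C-positive medium and 16.9 ± 2.47 FPKM with HTR2C-negative medium, and Zbtb7a followed at 11.8 ± 2.08 FPKM with HTR2C-positive medium and 8.03 ± 1.84 FPKM with HTR2C-negative medium (SD, n = 3). Within each library Zbtb21 was above Zbtb7a. Their ranges over libraries overlapped with HTR2C-positive medium (11.4, 15.1 and 16.1 FPKM for Zbtb21, 11.0, 10.3 and 14.2 FPKM for Zbtb7a). They did not with HTR2C-negative medium (18.4, 14.0 and 18.2 FPKM for Zbtb21, 6.18, 9.85 and 8.06 FPKM for Zbtb7a). Zbtb38, in the third place by the mean of all libraries, was at 3.32 ± 0.399 FPKM with HTR2C-positive medium and 5.94 ± 0.484 FPKM with HTR2C-negative medium. Zbtb6 was beside it at 3.36 ± 0.693 FPKM with HTR2C-positive medium and 4.40 ± 0.940 FPKM with HTR2C-negative medium, and these neighbours overlapped with HTR2C-positive medium. In all, 13 members had a mean of at least 1 FPKM. The dendritic cell gene Zbtb46 had levels of 0.111 FPKM with HTR2C-positive medium and 0.0949 FPKM with HTR2C-negative medium. As shares of the family's counts, Zbtb38 took 11.4%, 9.07% and 9.03% with HTR2C-positive medium, against 16.0%, 17.3% and 14.9% with HTR2C-negative medium, and Zbtb7a took 20.0%, 18.9% and 21.6% with HTR2C-positive medium, against 9.80%, 15.3% and 12.7% with HTR2C-negative medium. Neither pair of groups overlapped, and the shares of 1 family are bound to sum to the whole.

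**Figure D4:**
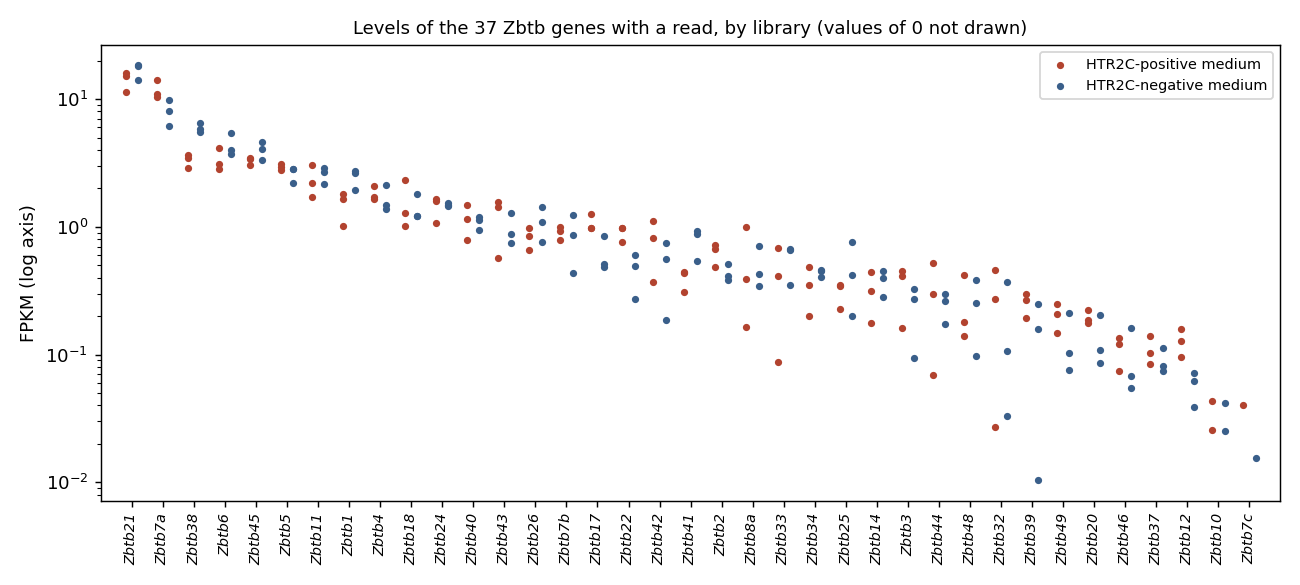
Level per transcript length (FPKM, log axis) of the 37 Zbtb genes with a count, 1 point per library, HTR2C-positive medium left of HTR2C-negative medium, ordered by the mean, with values of 0 not drawn. Zbtb21 and Zbtb7a stand above the rest, and Zbtb38 follows at a mean of 3.32 FPKM with HTR2C-positive medium and 5.94 FPKM with HTR2C-negative medium.

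BTB zinc finger genes that carry other names, the partners of BTB domains and reported targets were counted from lists of textbook genes. Of 8 other BTB zinc finger genes, 6 were tested, of which 1 was lower and 0 were higher by unadjusted p under 0.05, with a median log2 fold change of 0.03. The lower one, Zfp131, was at 41.5, 32.0 and 36.8 CPM with HTR2C-positive medium, against 60.9, 50.5 and 50.8 CPM with HTR2C-negative medium. Its groups did not overlap, the log2 fold change was -0.55 (SE 0.16, edgeR unadjusted p = 0.00493, adjusted p = 0.139), and it was -0.27 net of the GC and length trend. Gzf1 (0.56), Mynn (-0.39) and Hic2 (0.60) had unadjusted p-values of 0.0955, 0.119 and 0.282 in that order. Of 13 corepressor and ligase genes, all tested, 0 had an unadjusted p under 0.05, and the median log2 fold change was 0.05. The 4 with the smallest p were Ctbp1 (log2 fold change 0.47, edgeR unadjusted p = 0.0744), the ligase scaffold gene Cul3 (-0.40, 0.0752) and the deacetylase genes Hdac2 (-0.35, 0.281) and Hdac3 (0.24, 0.308). Values of all 4 overlapped between the groups, and net of the GC and length trend Ctbp1 was at 0.10 and Cul3 at -0.10.

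Of 9 reported target genes, 8 were tested, of which 0 were lower and 1 was higher by unadjusted p under 0.05, with a median log2 fold change of 0.24. The higher one was Cdkn1a, which encodes the cell cycle inhibitor p21 and is repressed by several Zbtb proteins. It was at 1086, 1113 and 840 CPM with HTR2C-positive medium, against 747, 702 and 802 CPM with HTR2C-negative medium. P3 and N3 were close but the groups did not overlap, and the log2 fold change was 0.43 (SE 0.16, edgeR unadjusted p = 0.0186, adjusted p = 0.210), or 0.16 net of the trend. Nfkbia, the target of Zbtb20, averaged 1896 ± 176 CPM with HTR2C-positive medium and 1724 ± 44.2 CPM with HTR2C-negative medium (SD, n = 3 each), with a log2 fold change of 0.14 (edgeR unadjusted p = 0.378). The glycolysis genes Pkm (0.26, unadjusted p = 0.182) and Slc2a3 (0.93, unadjusted p = 0.190) did not pass, and Pkm was at -0.19 net of the trend. Beside these counts, 8.71% of all genes were lower and 7.9% higher at the same threshold.

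The 5 tested genes whose log2 CPM followed that of Zbtb38 most closely over the 6 libraries were Scoc, Zfp386, Lats1, Eif5b and Rab8b, with Pearson r of 0.999, 0.997, 0.993, 0.993 and 0.992 in that order. Over 6 libraries in 2 groups, r describes mostly the difference between the groups. Their log2 fold changes were -0.73 for Scoc, -1.01 for Zfp386, -0.58 for Lats1, -0.44 for Eif5b and -0.31 for Rab8b. Net of the GC and length trend, these values were -0.38, -0.76, -0.39, -0.27 and -0.06 in that order. Scoc was at 21.0 ± 0.833 CPM with HTR2C-positive medium and 34.8 ± 1.41 CPM with HTR2C-negative medium (SD, n = 3 each).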

How the data were processed

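Messenger RNA was sequenced from BMDMs in 2 groups of 3 libraries, placed by their labels. Libraries were made from Trizol-extracted total RNA with a VAHTS Universal V6 kit, per the labels' protocols. The tools fastp, HISAT2, StringTie and edgeR and the build GRCm39 are listed in the submitters' processing notes. The annotation release, strand setting and treatment of multi-mapped reads are not given in the sources used. Per the file headers, the authors deposited a whole read count and an FPKM value per gene and library. The deposited FPKM equals the count divided by gene length and library total within a relative difference of 3.8e-07.

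The counts were tested with edgeR 4.0.16 under R 4.3.3 (filterByExpr, TMM factors, robust quasi-likelihood test, groups only as terms), and p-values were adjusted by Benjamini-Hochberg over all 10177 genes at a threshold of 0.05. Library totals ran from 12843971 to 16031723 counts. The floor of 3 counts covers counting error only. The 95% intervals of log2 fold changes come from the quasi-likelihood fit, so they also carry the spread between libraries. Alternatives were DESeq2 1.42.0, limma-voom (limma 3.58.1), other scalings, filters, a replicate block, an offset for GC content and length, and libraries left out. GC content came from the longest GENCODE M21 transcript, found for 10162 tested genes, and was used for composition only. The fits were tested on simulated data.

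Each tested member of a role list or with an unadjusted p under 0.05 is named with its values, other members by counts and ranges or where chosen after their values were seen (Zbtb21, Zbtb22, Zbtb26, Zbtb45), and up to 4 genes of smallest p per related list. The members and lists were chosen with earlier results of these data known, and 1 listed gene is not reported here.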

Additional observations from a re-analysis of the deposited data

How the results depend on the processing

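Across 16 alternatives, 20 of the 34 tested Zbtb genes kept the sign of their log2 fold change in every alternative that tested them, and 14 changed sign in at least 1, all of them genes with an unadjusted p above 0.05 except Zbtb7a. The cause of these changes was not tested. A filter of 1 CPM in 3 libraries left 30 members tested, without Zbtb3, Zbtb8a, Zbtb32 and Zbtb48. Without a filter on low counts, edgeR called 422 genes, 3 of them Zbtb genes, and DESeq2 called 394 genes, 3 of them Zbtb genes, against 0 in the reported fit. Leaving out libraries gave 0 to 1164 called genes, 0 to 4 called Zbtb genes, and 0 to 3 Zbtb genes higher at an unadjusted p under 0.05. The share of all genes higher at that threshold was not counted in these fits. The range of 0 to 3 is therefore not a result about the family. Without N2 the calls were 233 genes with 3 Zbtb genes (Zbtb38, Zbtb1 and Zbtb41), without P1 199 genes with Zbtb38, and without both 1164 genes with 4 Zbtb genes, Zbtb7a being the addition.

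Scaling by total counts alone gave 2 higher Zbtb genes at that threshold, where the share of all genes was not counted. The family median was then 0.11, against 0.16 for all genes. Values were positive for Zbtb40 (0.060), Zbtb8a (0.071), Zbtb48 (0.0029), Zbtb7b (0.10) and Zbtb18 (0.12). With the GC and length trend removed, 0 Zbtb genes were higher (against 4.33% of all genes) and the median was -0.22. Values were -0.0056 for Zbtb7a, -0.23 for Zbtb5, 0.17 for Zbtb18, -0.046 for Zbtb46, -0.21 for Zbtb4 and -0.19 for Pkm. Limma-voom gave -0.30 for Zbtb44 and 0.023 for Zbtb7b.

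The labels number libraries 1 to 3 in each group, but same-numbered libraries did not deviate together (r of -0.15, -0.23 and 0.05), so the numbers were not taken as pairs. A replicate block called 0 genes, gave a median of -0.08, and gave -0.12 for Zbtb44 and 0.067 for Zbtb7b. The replicate block with the GC and length trend removed gave 0 higher Zbtb genes, where the share of all genes was not counted. It gave a median of -0.22, and -0.018 for Zbtb7a, -0.22 for Zbtb5, 0.13 for Zbtb18, -0.21 for Zbtb4 and -0.18 for Pkm.

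With libraries left out, log2 fold changes ran from -0.34 to 0.0077 for Zbtb24, -0.082 to 0.46 for Zbtb43, -0.22 to 1.54 for Zbtb32, -0.63 to 0.67 for Zbtb44, -0.069 to 0.36 for Zbtb37, -0.27 to 0.19 for Zbtb40, -0.061 to 0.17 for Zbtb5, -1.20 to 0.27 for Zbtb8a, -0.71 to 0.49 for Zbtb48, -0.31 to 0.40 for Zbtb7b, -0.42 to 0.26 for Zbtb18, -0.30 to 0.71 for Zbtb46 and -0.058 to 0.14 for Zbtb4.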

Other observations

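Several Zbtb genes lie next to or across one another, and 13 of the 40 share part of their span with another gene in the deposited coordinates (11 of them tested). Zbtb1 and Zbtb25 lie 663 bases apart on opposite strands of chromosome 12 and had log2 fold changes of -0.87 and -0.68. Zbtb6 and Zbtb26, which overlap on chromosome 2, had -0.51 and -0.55. Zbtb43 and Zbtb34, 19.0 kb apart on the same chromosome and strand, had 0.16 and -0.49. Zbtb26 was at 7.19, 9.60 and 5.86 CPM with HTR2C-positive medium, against 15.4, 6.81 and 11.1 CPM with HTR2C-negative medium, where N2 lay among the HTR2C-positive values. Trim28, which encodes a corepressor of zinc finger proteins and overlaps Zbtb45 on the opposite strand, averaged 16.3 CPM with HTR2C-positive medium and 10.6 CPM with HTR2C-negative medium (log2 fold change 0.61, edgeR unadjusted p = 0.0190), the opposite direction to Zbtb45. Bcl6, a BTB zinc finger gene known for repressing inflammatory genes in macrophages, was at 50.3, 70.6 and 58.4 CPM with HTR2C-positive medium, against 55.1, 49.2 and 54.7 CPM with HTR2C-negative medium, values that overlapped, with a log2 fold change of 0.17. Zbtb26, Bcl6 and Trim28 were named after their values were seen.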
